A study of Mus musculus with 8 samples.

Results

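Ptprs, Ptprf, Rtn4r, Rtn4rl1, Rtn4rl2, Lingo1, Cspg4 and Cspg5 encode receptors for chondroitin sulfate proteoglycans (CSPGs) and for Nogo, a co-receptor, and a pair of membrane CSPGs. They were chosen by gene symbol and are 8 of the 18058 gene rows of a table of normalized counts from mouse retina. All 8 passed the filter on low values, a mean of at least 10 normalized counts over the 8 libraries, as did 17636 of the rows. Whole retinae of adult mice were sequenced as total RNA, 450 ng per library, in 4 wild-type (WT) and 4 quadruple knockout (KO) libraries named A to D. The submitters count 4 mice per genotype, but retinae were pooled for RNA extraction, and whether a pool held the eyes of 1 mouse or of several is not given in the sources used here. The p-values below measure the spread between these libraries. The KO mice lack the matrix proteins encoded by Bcan, Ncan, Tnc and Tnr, and the line was made by cross-breeding the single KO lines. The WT mice came from the commercial inbred strain that serves as the background of the KO line. The sex of the animals behind each library and any batch of preparation are likewise not given, and how far the KO line carries that background was not analysed here.

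CSPGs of the neural extracellular matrix carry sulfated sugar chains. At the surface of neurons these chains are bound by the receptor phosphatases PTPσ (Ptprs) and LAR (Ptprf) and by some of the Nogo receptors. The Nogo receptors have no cytoplasmic part and signal through partners such as Lingo1 and the neurotrophin receptor encoded by Ngfr to RhoA and its kinases, which collapse growth cones. In the retina this system is known mostly from ganglion cells, whose axons do not regrow after injury, while Cspg4 (NG2) marks pericytes and oligodendrocyte precursors and Cspg5 (neuroglycan C) is a transmembrane CSPG of neurons and glia. Brevican and neurocan, which the KO mice lack together with the products of Tnc and Tnr, are themselves CSPGs. The comparison asks whether the RNAs of the receptors and of the membrane CSPGs differ in these mice. The authors saw no specific staining for neurocan in the adult retina, so the absence of its protein may not distinguish the genotypes at this age.

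None of the 8 genes passed the test for a difference between the genotypes. The test was limma on log2(normalized count + 1), adjusted by Benjamini-Hochberg over all 17636 genes, with a call at an adjusted p under 0.05. It called 77 genes, 0.437% of those tested. The adjusted p of the 8 genes ran from 0.301 to 0.995. At an unadjusted p under 0.05 there were 2 of the 8, Ptprs and Cspg5, both with the lower mean in KO, against a background of 16.6% of all tested genes. Ptprs did not overlap between the genotypes and was lower in KO, as were 3.58% of all tested genes. Rtn4rl1 did not overlap and was higher in KO, as were 6.16% of all tested genes. The median log2 fold change of the 8 genes was -0.16, with a range from -0.57 to 0.15, beside a median of 0.00 over all genes tested. Whole retina was measured, so fewer cells of a type and less RNA per cell cannot be told apart in any value below.

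WT B and WT C stood apart from the other 6 libraries. The first principal component, with 50.9% of the variance, separated them from the rest. RNA of the signal recognition particle made up 19.3% and 14.8% of their values, against 6.82% to 8.69% in the others, and mitochondrial mRNA 0.402% and 0.341%, against 1.28% to 1.64%. All 8 rod markers examined were above 0 in every library. Their summed level was 1535570 to 1836810 in WT and 1849920 to 2007440 in KO, higher in every KO library, and that of 10 retinal ganglion cell markers was lower in every KO library. Of all tested single genes, 6.16% separated upward in KO and 3.58% downward. The share for summed sets of genes was not computed. None of these markers was called, and their part in the values of the 8 genes was not tested. The estimated depth ran from 23.8 M to 40.5 M reads in WT and from 38.9 M to 52.5 M reads in KO. Bcan, Ncan and Tnr were lower in all 4 KO libraries than in any WT library, with KO means of 5.82%, 0.0566% and 42.9% of WT, whereas Tnc overlapped, with 1265 ± 330 in WT and 1175 ± 104 in KO (mean ± SD, n = 4). Each of the 8 genes is therefore also given without WT B and WT C, that is, with 2 WT libraries against 4 KO libraries. Of the 8 genes, 5 were higher in both WT B and WT C than in WT A and WT D, 1 was lower and 2 were mixed. Over all tested genes the corresponding shares were 35.1% higher and 35.8% lower.

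**Figure D1:**
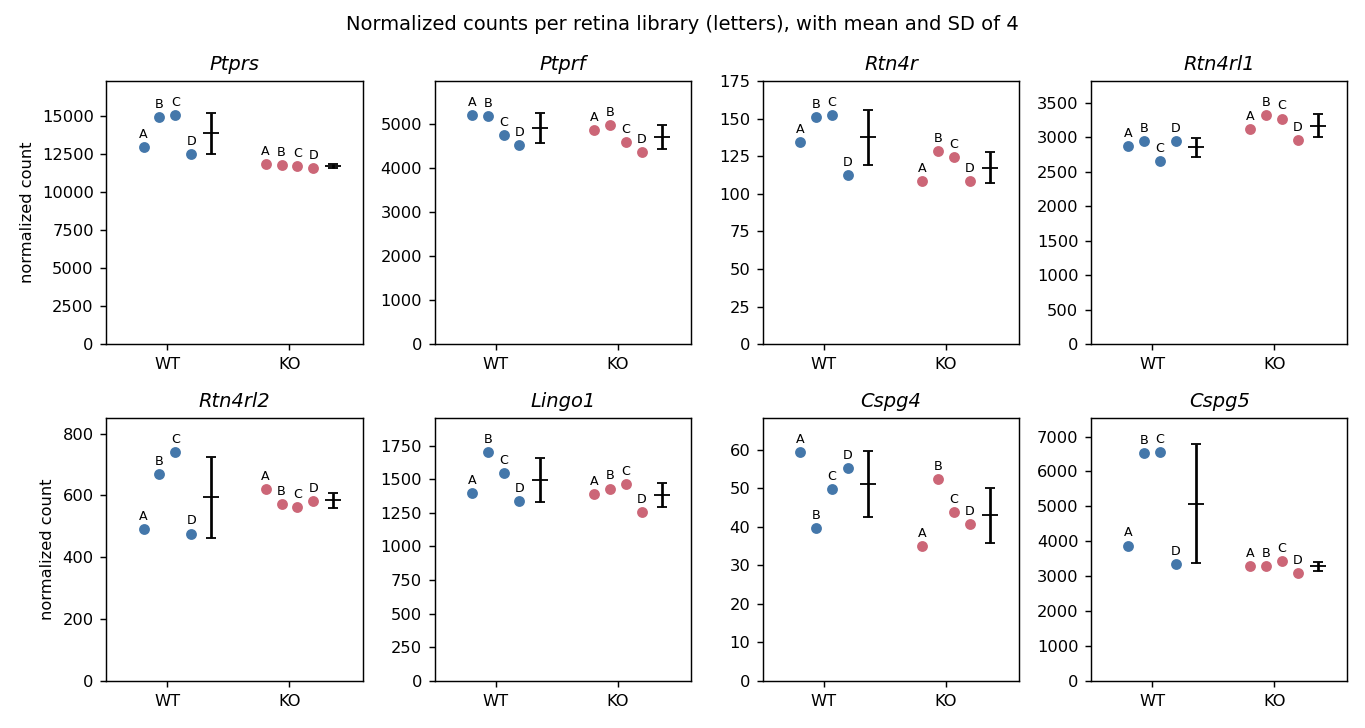
Normalized count (vertical axes, from 0) of each gene in the 4 WT (blue) and 4 KO (red) retina libraries, lettered A to D, with the mean and SD of each genotype in black. Ptprs and Rtn4rl1 do not overlap between the genotypes, and the WT values of Cspg5 and Rtn4rl2 fall into pairs, with WT B and WT C above WT A and WT D.

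Ptprs, the principal receptor phosphatase for CSPG sugar chains, lies on chromosome 17 (GRCm39, chr17:56718507-56783537, minus strand). Normalized counts of Ptprs were 12971, 14948, 15031 and 12464 in WT A to D and 11852, 11739, 11731 and 11545 in KO A to D. Every KO library was below every WT library, and the KO libraries lay much closer together than the WT libraries. The mean was 13853 ± 1328 in WT and 11717 ± 127 in KO (SD, n = 4), a log2 fold change of -0.24 (SE 0.0773, 95% confidence interval -0.41 to -0.06), with an adjusted p of 0.301 by limma. The two-sided exact permutation test of the means gave p = 0.0286, the smallest that 4 against 4 libraries allow. This unadjusted value follows from the lack of overlap, and every gene without overlap receives it. Leaving out WT B and WT C gave a log2 fold change of -0.12 (adjusted p = 0.345, limma). The KO libraries lay below both remaining WT libraries, an order already fixed by that of the full set.

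Ptprf encodes LAR, which binds the same sugar chains and, like PTPσ, also organizes synapses. It lies on chromosome 4 (chr4:118065042-118148627, minus strand), 54.1 Mb from the targeted gene Tnc. The normalized counts were 5198, 5185, 4742 and 4517 in WT A to D and 4854, 4988, 4584 and 4375 in KO A to D. The genotypes overlapped in 3 of the 4 KO libraries, and WT B and WT C did not stand together. The log2 fold change was -0.06 (SE 0.0749, adjusted p = 0.623, limma) and -0.05 without WT B and WT C, and the 95% interval of the KO-to-WT ratio was 0.852 to 1.08.

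Ptprd, the remaining member of the LAR family, was taken for comparison. Its mean was 7942 ± 1381 in WT and 8315 ± 422 in KO (SD, n = 4), a log2 fold change of 0.08 (adjusted p = 0.682, limma). Per kb of exon, Ptprs made up 44.8% to 53.8% of the family in WT and 44.6% to 46.4% in KO. Its highest shares, 50.8% and 53.8%, were those of WT B and WT C. Ptprf held 30.2% to 32.0% of the family in WT and 31.1% to 33.9% in KO. These shares depend on the length taken. Per kb of longest transcript, Ptprf held 18.4% to 19.6% in WT and 19.0% to 21.0% in KO. The shares of both members overlapped between the genotypes.

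Rtn4r encodes NgR1, the receptor for Nogo, myelin-associated glycoprotein and oligodendrocyte-myelin glycoprotein, and lies on chromosome 16 (chr16:17945241-17970272, plus strand). Rtn4r had normalized counts of 134, 151, 152 and 113 in WT A to D and 109, 128, 125 and 108 in KO A to D. WT D lay among the KO libraries, and the other WT libraries were above all of them. The log2 fold change was -0.22 (SE 0.137, interval -0.53 to 0.09, adjusted p = 0.366, limma), and -0.07 without WT B and WT C.

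Rtn4rl1 encodes NgR3, which binds CSPG sugar chains, and lies on chromosome 11 (chr11:75084149-75160918, plus strand). Counts of Rtn4rl1 were 2882, 2943, 2657 and 2948 in WT A to D and 3128, 3319.6, 3274 and 2959.8 in KO A to D. Every KO library was above every WT library, but KO D exceeded WT B and WT D by a narrow margin. The mean was 2858 ± 137 in WT and 3170.3 ± 162 in KO (SD, n = 4), a log2 fold change of 0.15 (SE 0.0685, interval -0.0046 to 0.30, adjusted p = 0.302, limma). The exact permutation test gave p = 0.0286, unadjusted, which likewise follows from the lack of overlap. Without WT B and WT C the log2 fold change was 0.12 (adjusted p = 0.453, limma). That the KO libraries lay above both remaining WT libraries was again fixed by the order of the full set.

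Rtn4rl2 encodes NgR2, a receptor for myelin-associated glycoprotein, and lies on chromosome 2 (chr2:84701645-84717388, minus strand). Its normalized counts were 490.0, 669, 740.4 and 477 in WT A to D and 619, 572, 563 and 583 in KO A to D. All 4 KO libraries fell into the gap between the WT pairs, above WT A and WT D and below WT B and WT C. The log2 fold change was 0.00 (SE 0.147, interval -0.33 to 0.33, adjusted p = 0.995, limma). Without WT B and WT C it was 0.27 (SE 0.0705, interval 0.11 to 0.43), with an adjusted p of 0.236 by limma. Of all runs of 31 bases in the annotated transcripts of Rtn4rl2, 9.78% also occurred in transcripts of other genes, the highest share of the 8 genes, so reads there may have been divided between genes.

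Among the 3 Nogo receptors, Rtn4rl1 made up the largest part of the RNA per kb of exon in every library. Its share was 55.1% to 67.3% in WT and 63.8% to 66.2% in KO. Rtn4rl2 held 25.9% to 36.5% in WT and 27.1% to 30.2% in KO. Rtn4r held 6.81% to 8.37% in WT and 5.88% to 6.78% in KO, and these ranges did not overlap by a narrow margin. The normalized counts of Rtn4r itself did overlap, and how often such shares separate in other gene families was not computed. The summed level of 10 markers of retinal ganglion cells, the neurons in which Nogo receptors are best known, ran from 31177 to 34085 in WT and from 25743 to 30374 in KO, with no marker called and none at 0. The part of these cells in the values of the Nogo receptors was not tested.

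Lingo1, the co-receptor of NgR1, lies on chromosome 9 (chr9:56523065-56703752, minus strand). Its normalized counts were 1395, 1703, 1549 and 1335 in WT A to D and 1389.8, 1431.5, 1463 and 1258 in KO A to D. WT B and WT C were above every KO library, and WT A and WT D lay among the KO libraries. The log2 fold change was -0.11 (SE 0.0945, interval -0.32 to 0.11, adjusted p = 0.504, limma), and 0.02 without WT B and WT C, so that its sign turned.

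Cspg4 encodes NG2, a membrane CSPG, and is a neighbour of Lingo1 on chromosome 9 (chr9:56772317-56807187, plus strand). Its normalized counts were the lowest of the 8 genes, with 59.4, 39.6, 49.8 and 55.4 in WT A to D and 35.1, 52.3, 43.9 and 40.7 in KO A to D. The genotypes overlapped, and here WT B and WT C were the lower WT libraries. The mean was 51.0 ± 8.59 in WT and 43.0 ± 7.18 in KO (SD, n = 4), a log2 fold change of -0.24 (SE 0.193, interval -0.68 to 0.20, adjusted p = 0.462, limma). Once WT B and WT C were left out, the log2 fold change was -0.42 (interval -0.88 to 0.03, adjusted p = 0.454, limma). Every KO library was then below both remaining WT libraries. The share of all tested genes that separate in this smaller set was not computed. At this level a ratio of KO to WT anywhere between 0.626 and 1.14 lay within the interval from all libraries. The summed level of 7 mural cell markers was 1410.0 to 2029 in WT and 1316 to 1867 in KO, that of 5 oligodendrocyte lineage markers 1813 to 2170 in WT and 1715 to 2411 in KO, and none of them was called or at 0. Their part in the level of Cspg4 was not tested.

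Cspg5 encodes neuroglycan C and lies farther along chromosome 9 (chr9:110072851-110091644, plus strand). With all 8 libraries weighted equally it had the largest log2 fold change of the 8 genes and the widest relative spread in WT, with a coefficient of variation of 33.6%. Its normalized counts were 3879, 6516, 6557 and 3340.0 in WT A to D and 3305, 3304, 3421 and 3087 in KO A to D. WT B and WT C were far above all other libraries, WT A was a little above the KO libraries, and WT D lay below KO C. The mean was 5073 ± 1704 in WT and 3279 ± 139 in KO (SD, n = 4), a log2 fold change of -0.57 (SE 0.211, interval -1.04 to -0.09, adjusted p = 0.301, limma). The two-sided exact permutation test gave p = 0.0571. Without WT B and WT C the log2 fold change was -0.14 (SE 0.0683, interval -0.29 to 0.02, adjusted p = 0.479, limma), and the KO libraries overlapped WT D. The differences of Cspg4, -0.42, and Rtn4rl2, 0.27, were then the larger ones. The summed level of 8 Mueller glia markers was also highest in these 2 libraries, at 205328 and 198584, against 145008 to 161955 in the other 6 libraries, and none of these markers was called or at 0. The part of Mueller glia, and of the 2 WT libraries that stood apart, in the difference of Cspg5 was not tested.

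**Figure D2:**
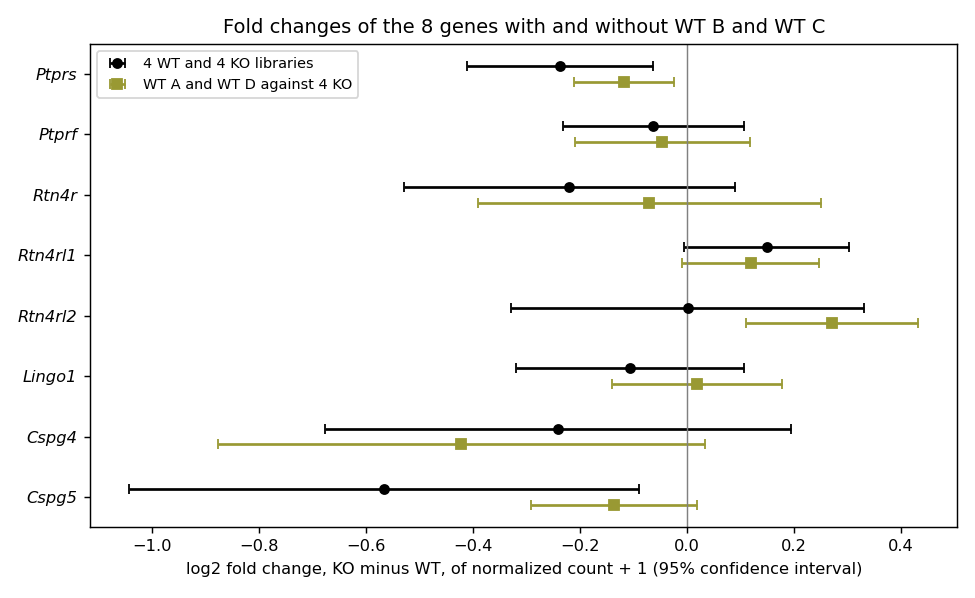
Log2 fold change of KO against WT on normalized count + 1 (horizontal axis) with its 95% confidence interval for each gene, with all 8 libraries (black circles) and without WT B and WT C (olive squares). The difference of Cspg5 moves from -0.57 to -0.14, that of Rtn4rl2 from 0.00 to 0.27, and that of Ptprs from -0.24 to -0.12.

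Cspg5 was also the only one of the 8 genes whose log2 values spanned more than 1 over the 8 libraries, with a span of 1.09, and 29.3% of all tested genes spanned more than 1. The 3 tested genes with the nearest pattern, by the root mean square difference of their centred log2 values over the 8 libraries, were Nphp4 at 0.0474, Cdadc1 at 0.0521 and Chd3 at 0.0527. Nphp4, a gene of the ciliary transition zone, had 2077 and 2012 normalized counts in the pair of WT libraries B and C, against 1161 in A, 992 in D and 919 to 1061 over the KO libraries. Chd3, a chromatin remodeller, had 13106 and 12710.0 in the same pair, against 7789 in A, 6598 in D and 6442 to 6698 over the KO libraries. Like Cspg5, all 3 were highest in WT B and WT C, intermediate in WT A and level in WT D and KO. Their log2 fold changes were -0.61, -0.52 and -0.55, and none was called (adjusted p = 0.301 for each, limma).

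**Figure D3:**
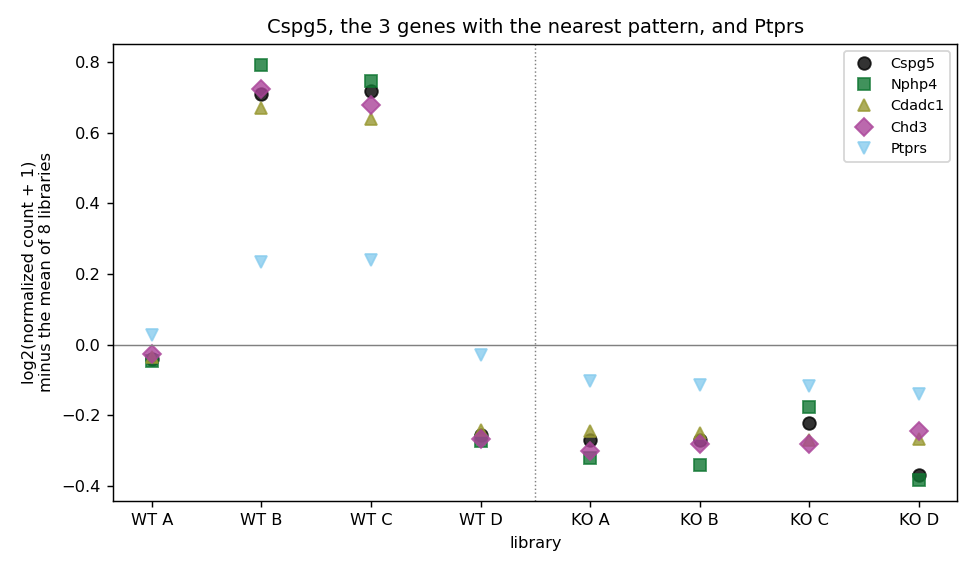
Log2(normalized count + 1) minus the mean of the 8 libraries (vertical axis) in each library (horizontal axis) for Cspg5, the 3 genes with the nearest pattern, and Ptprs. Cspg5 and the 3 genes are far above their mean in WT B and WT C and close together in WT D and KO, and Ptprs has a shallower difference between the same libraries.

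The levels of the 8 genes can be compared with each other only per length. Per kb of the union of annotated exons, the order in WT was Ptprs with 812 ± 77.9 normalized counts per kb, Ptprf with 513 ± 35.2, Cspg5 with 504 ± 169, Rtn4rl1 with 471 ± 22.5, Rtn4rl2 with 233 ± 51.5, Lingo1 with 183 ± 20.2, Rtn4r with 60.1 ± 8.10 and Cspg4 with 4.27 ± 0.718 (mean ± SD, n = 4). The ranges of Ptprf, Cspg5 and Rtn4rl1 overlapped in WT, so their order was not resolved there, nor was that of Rtn4rl2 and Lingo1. In KO, Rtn4rl1 with 522 ± 26.8 and Ptprf with 491 ± 28.6 still overlapped, whereas Cspg5 with 326 ± 13.8 lay below both and Rtn4rl2 above Lingo1 without overlap. Cspg4, the marker of pericytes and oligodendrocyte precursors, stood 14.1-fold below Rtn4r in WT. With the length of the longest transcript in place of the union of exons, Ptprs had 1823 ± 175 and Ptprf 608 ± 41.7 in WT, and the order of the 8 genes in WT stayed the same. The order within the LAR family did depend on the length, since Ptprd with 318 per kb of exon union was below Ptprf, but with 754 per kb of longest transcript was above it, where Ptprf had 608.

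**Figure D4:**
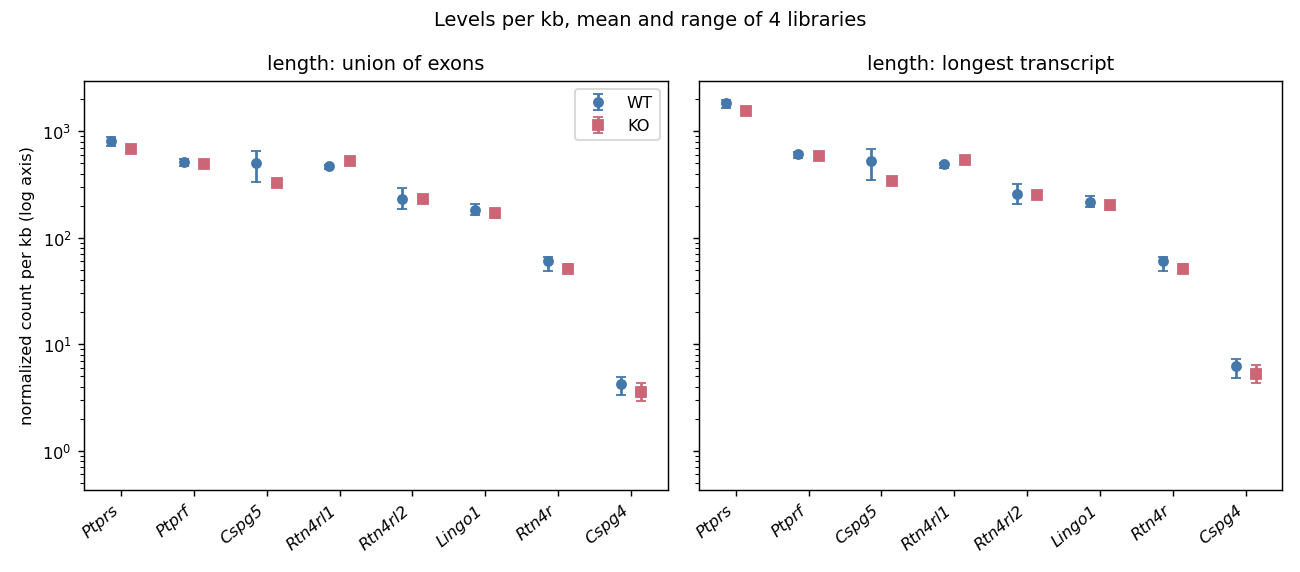
Normalized count per kb (vertical log axis) of each gene in WT (blue circles) and KO (red squares), with the mean and the lowest and highest of 4 libraries, for 2 measures of gene length. Ptprs is highest and Cspg4 lowest with either length, and the WT range of Cspg5 covers the levels of Ptprf and Rtn4rl1.

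The rest of the system was followed in 5 lists of genes, of which 52 of 54 were tested and none was called in either direction (background 0.437%). Pirb and Acan were not analysed here. Among the 52 genes, 7 with the higher mean in KO and 5 with the lower had an unadjusted limma p under 0.05 (background 16.6%). The genotypes did not overlap for 5 genes that were higher in KO (background 6.16%) and for 1 that was lower (background 3.58%). The median log2 fold change over the 52 genes was 0.03.

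The ligands and antagonists of the Nogo receptors were all tested, 8 of 8, with a median log2 fold change of 0.00. The ends of their range were Omg, which encodes oligodendrocyte-myelin glycoprotein, at 0.40 (adjusted p = 0.358, limma) and Tnfsf13b, which encodes the cytokine BAFF, at -0.48 (adjusted p = 0.571, limma). Without WT B and WT C both turned in sign, to -0.08 and 0.06. The level of Tnfsf13b was low, with means of 18.6 ± 8.16 in WT and 14.3 ± 9.27 in KO (SD, n = 4). Rtn4, which encodes Nogo itself, was named after its values were seen, as the gene of this list whose genotypes did not overlap. It had 22104, 17708, 17743 and 21169 normalized counts in WT A to D and 23294, 22981, 23862 and 23010.4 in KO A to D. Every KO library was above every WT library, and WT B and WT C were the lowest. Its log2 fold change was 0.25 (adjusted p = 0.301, limma) and 0.11 with WT A and WT D alone. Per kb of exon, Rtn4 with 2505 ± 292 in WT stood above each of the Nogo receptors.

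Of the co-receptors and other receptors of Nogo, 6 of 7 were tested, with a median log2 fold change of -0.20. Lingo2, a paralogue of Lingo1, was lowest at -0.42 (adjusted p = 0.301, limma) and at -0.17 without WT B and WT C. S1pr2, a sphingosine-1-phosphate receptor that also binds Nogo, was highest at 0.26 (adjusted p = 0.53, limma), with KO A far above the other libraries, and at -0.0051 without KO A. Ngfr, the signalling partner of NgR1, had 1477 ± 280 normalized counts in WT and 1253 ± 115 in KO (SD, n = 4). Its log2 fold change was -0.22 (adjusted p = 0.36, limma), and it was 0.01 with WT A and WT D alone. Per kb of exon Ngfr had 428 ± 81.2 in WT, above Lingo1, whereas Tnfrsf19, which can take its place, had 12.0 ± 4.98.

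The list of other CSPGs and the remaining LAR family phosphatase had the highest median, 0.30, over 7 of 8 genes tested. That median was the value of Vcan (SE 0.302, adjusted p = 0.556, limma). Dcn, which encodes decorin of connective tissue, was at one end with 0.88 (adjusted p = 0.301, limma) from means of 13.8 ± 6.79 in WT and 24.8 ± 6.32 in KO (SD, n = 4), and was 0.31 with WT A and WT D alone. Agrn, which encodes agrin, was at the other end with -0.14 (adjusted p = 0.344, limma). The summed level of 6 markers of fibroblasts and sclera, of which Dcn is one, was 346 to 746 in WT and 260.5 to 539 in KO, and none was called or at 0. Cd44, a hyaluronan receptor that can carry chondroitin sulfate, was named after its values were seen because its genotypes did not overlap, with 261 ± 23.8 in WT and 335 ± 36.1 in KO (adjusted p = 0.301, limma).

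The synaptic partners of the LAR family comprised 18 genes, all tested, with a median log2 fold change of 0.00. Slitrk6, a postsynaptic binding partner, was highest at 0.66 and Lrrc4b, which encodes the netrin-G ligand that binds LAR, lowest at -0.53 (adjusted p = 0.301 for each, limma). These values were 0.17 and -0.07 with WT A and WT D alone. The genotypes did not overlap for 3 of the 18, with Slitrk6 and Slitrk2 higher in KO (background 6.16%) and Ppfia4 lower (background 3.58%). Of these, Slitrk2 and Ppfia4 were named after their values were seen, with log2 fold changes of 0.43 and -0.38 (adjusted p = 0.301 for each, limma), and of 0.13 and -0.19 without WT B and WT C.

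The RhoA and ROCK pathway, to which these receptors signal, comprised 13 genes, all tested, and had the narrowest range. Its log2 fold changes ran from -0.16 for Gna13, a G protein subunit upstream of RhoA, to 0.20 for the kinase Rock1, with a median of 0.05. Rock1 had 2269 ± 193 normalized counts in WT and 2599 ± 69.8 in KO (SD, n = 4) and did not overlap between the genotypes (adjusted p = 0.301, limma). Without WT B and WT C, Rock1 was at 0.10 and Gna13 turned to 0.06.

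**Figure D5:**
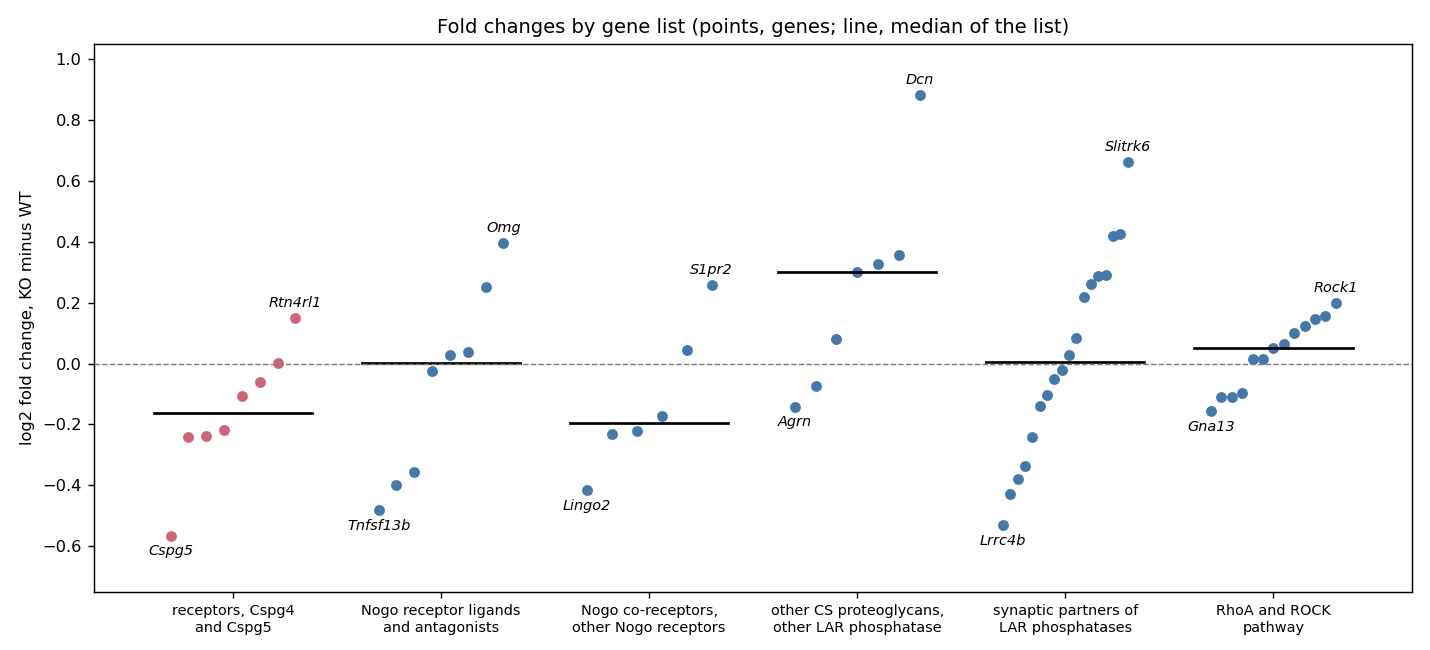
Log2 fold change of KO against WT (vertical axis) of each gene (points) in the receptor and membrane CSPG genes (red) and in 5 lists of related genes (blue), with the median of each list as a black line and the ends of each range named. No gene in any of these lists was called, and the RhoA and ROCK pathway has the narrowest range, from -0.16 to 0.20.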

How the data were processed

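The deposited table holds normalized counts per library, which the authors made with Trim Galore 0.6.7, STAR 2.7.9a on GRCm39, Salmon 1.5.2 and DESeq2 1.32.0 in R 4.1.1 (per the submitters' processing notes), as estimated counts divided by normalization factors. These values are not whole. The library kit was directional, but whether the counting used strand is not given in the sources used here, and antisense transcripts overlap all of the 8 genes but Rtn4r and Cspg4. The table also holds the authors' fold changes and p-values, which were not used.

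Normalized counts were tested with limma 3.58.1 in R 4.3.3 (lmFit, eBayes with a trend) after log2(value + 1), a pseudocount of 1, for genes with a mean of at least 10. Exact permutation tests used scipy 1.17.1, tables Python 3.11.15, numpy 2.4.6 and pandas 2.3.3, and plots matplotlib 3.10.9. The fit was tested on simulated data. Positions and lengths came from GENCODE on GRCm39. Depth was estimated from the spacing of low values; at most 67.8% of them lay on whole steps (tolerance 0.1), so whole reads were not recovered.

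Columns were matched to samples by name. The letters A to D are not said to pair the libraries, and the deviations of same-letter libraries correlated at -0.11 to 0.10, so no block was used. The members, the gene lists and the rule for named genes (all members; the targeted genes; the ends of each list and every called gene; the 3 genes most like a member that spans over 1 on the log2 scale) were chosen with earlier results of these data known. Alternatives comprised scaling, filter, pseudocount, moderation, weights, a block, and libraries left out.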

Additional observations from a re-analysis of the deposited data

Results flagged for a closer look

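In 90 groups of 4 libraries, covering the genes named, the summed markers and the library measures, 2 held 1 library far from the other 3 by Dixon's test at the 95% level, which flags about 1 group in 20 by chance. None of the 16 groups of the receptor and membrane CSPG genes was among them. The test looks for 1 library apart from the other 3, so it does not flag a pair such as WT B and WT C. S1pr2 had 157.8 normalized counts in KO A against 73.6 to 77.4 in the other KO libraries. The summed markers of lens and surface epithelium came to 1147 in KO C against 103 to 257 in the other KO libraries, beside 96.9 to 1482 in WT.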

How the results depend on the processing

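No receptor or membrane CSPG gene was called under any of 18 alternatives; the lowest adjusted p (limma) was 0.0769, for Cspg5 without WT D. Of 143 refitted log2 fold changes, 138 kept their sign. Changing the filter or the moderation, or adding the block, leaves a log2 fold change as it was by construction. Refits without 1 library share the remaining libraries, so this count is not independent support. The log2 fold change of Rtn4rl2 was -0.0039 with median ratio scaling and ran from -0.10 to 0.12 when 1 library was left out, and that of Lingo1 was 0.0194 with WT A and WT D only. Under that choice Tnc was 0.25, Omg -0.0826, Tnfsf13b 0.0635 and Gna13 0.0625, and with array weights Tnc was 0.13 and Gna13 0.0073. Array weights also gave -0.25 for Cspg5, -0.40 for Cspg4 and 0.22 for Rtn4rl2. Leaving out 1 library gave -0.23 to 0.0522 for Tnc and -0.0051 to 0.36 for S1pr2. The cause was not tested. Leaving out 1 library moved Cspg5 between -0.745 and -0.42, Ptprs between -0.29 and -0.20 and Cspg4 between -0.35 and -0.15. The count of called genes was 143 with array weights and 51 with the letters as a replicate block, against 77, and 56 to 89 with 1 library left out. The replicate block called none of the 8 genes. With WT A and WT D only, 1 listed gene was called, Ntrk3, a receptor of neurotrophin-3 that binds PTPσ (log2 fold change -0.37, adjusted p = 0.0135, limma). That choice called 93 of the 17636 genes tested. With all 8 libraries Ntrk3 was at -0.24 (adjusted p = 0.301, limma), and its genotypes overlapped. Per kb of longest transcript the WT levels of Ptprs, Ptprf, Lingo1 and Cspg4 were 1823, 608, 219 and 6.26. A minimum mean of 100 left Cspg4 untested. Depth limits Cspg4 the most, with 35.1 to 59.4 normalized counts a library.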
